A study of Mus musculus with 6 samples.

Results

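The cystatin family was followed in testes of adult wild-type mice and of mice carrying a constitutively active DREAM mutant, through 8 genes: Cst3, Cst6, Cst8, Cst9, Cst11, Cst12, Cst13 and Cstb. Members were taken as every probe set annotated to 1 of these genes alone, by current or older symbol, which gave 8 of the 45101 probe sets on the array. They cover 7 of the 8 genes, among 18193 genes with a probe set of their own, and Cstb has 2. Cst8 has no probe set annotated to it alone in the annotation used here and was not analysed. The family was chosen by its names with the log2 differences between transgenic and wild-type arrays already in view, the fall of Cst9 above all, so the differences of the members in that contrast are given as a description with their errors, and nothing is read from them as a test.

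RNA came from freshly dissected testis of adult mice on a C57BL/6 x CBA hybrid background, with 3 wild-type and 3 transgenic samples on 1 array each, which the series' design text calls independent replicates. DREAM (Kcnip3, also KChIP3 or calsenilin) is a neuronal calcium sensor that binds DNA and represses transcription until calcium releases it. The constitutively active form is a mutant kept in the repressing state. The promoter that drives the transgene, the number of lines and the exact age of the mice are not given in the sources used here. Values are log2 intensities from RMA, a method that corrects background, brings arrays to a common distribution and summarises the probes of each probe set. A step of 1 on this scale is a 2-fold ratio of intensity. Levels of different probe sets are not set against each other, because probes differ in how well they bind.

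Cystatins are small proteins, many of which block papain-like cysteine proteases, such as lysosomal cathepsins, by fitting into their active site. Some, such as Cst6, also inhibit legumain. The stefins, such as Cstb, work inside cells, and the secreted cystatins, such as Cst3 (cystatin C), work outside them. A cluster of cystatin genes on mouse chromosome 2 holds a reproductive branch, several of whose proteins lack residues that cystatin C uses to inhibit proteases. Cst9 encodes testatin, known from pre-Sertoli cells of the fetal testis at sex determination and from Sertoli cells, and Cst8 encodes CRES, known from spermatids and the proximal epididymis. Cst11 and Cst12 are listed with the older names CRES2 and CRES3, and Cst13 with Cymg1.

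The upstream sequences of the cluster are shown because DREAM acts as a DNA-binding repressor and because Cst9 and its neighbours read so differently. Each is the 250 bases before the RefSeq start of the gene on assembly GRCm38.p6, on the gene's own strand. Capitals mark GTCA, the core of the DRE element that DREAM binds, and its reverse complement TGAC. Cst9 comes first, then its neighbours Cstdc2, Cst13, Cst12 and Cst3.
Cst9 (chr2:148834897-148835146, + strand): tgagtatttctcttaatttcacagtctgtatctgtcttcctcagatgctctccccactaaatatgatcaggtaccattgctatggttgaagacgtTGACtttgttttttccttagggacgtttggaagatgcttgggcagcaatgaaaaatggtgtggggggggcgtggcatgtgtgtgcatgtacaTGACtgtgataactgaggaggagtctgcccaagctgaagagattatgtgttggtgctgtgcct
Cstdc2 (chr2:148850935-148851184, - strand): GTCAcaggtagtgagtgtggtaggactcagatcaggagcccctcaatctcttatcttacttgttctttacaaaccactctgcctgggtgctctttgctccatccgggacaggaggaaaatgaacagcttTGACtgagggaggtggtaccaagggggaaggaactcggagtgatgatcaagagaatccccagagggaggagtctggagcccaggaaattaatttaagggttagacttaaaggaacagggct
Cst13 (chr2:148819849-148820098, + strand): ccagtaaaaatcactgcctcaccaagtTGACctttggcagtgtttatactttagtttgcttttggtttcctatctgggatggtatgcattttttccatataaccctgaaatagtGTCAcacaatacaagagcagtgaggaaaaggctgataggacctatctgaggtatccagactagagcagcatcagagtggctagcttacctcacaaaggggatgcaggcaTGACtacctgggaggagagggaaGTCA
Cst12 (chr2:148789115-148789364, + strand): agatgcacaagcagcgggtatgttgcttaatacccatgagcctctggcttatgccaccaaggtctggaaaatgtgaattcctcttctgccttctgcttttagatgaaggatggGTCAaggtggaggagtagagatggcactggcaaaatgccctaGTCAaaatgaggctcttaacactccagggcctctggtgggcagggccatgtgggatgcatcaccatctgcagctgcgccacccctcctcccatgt
Cst3 (chr2:148875513-148875762, - strand): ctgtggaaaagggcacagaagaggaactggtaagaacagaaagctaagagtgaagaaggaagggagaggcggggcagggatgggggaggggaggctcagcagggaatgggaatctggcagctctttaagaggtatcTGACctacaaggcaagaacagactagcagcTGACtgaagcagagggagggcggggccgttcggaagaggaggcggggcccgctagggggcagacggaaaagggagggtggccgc

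Cst9 had 2 matches to the DRE core in this window, at 155 and 63 bases before the start, both on the opposite strand. Cstdc2, Cst12 and Cst3 also had 2 matches each and Cst13 had 4. Over 32851 upstream windows of the same length in the RefSeq table, 80.2% held at least 1 match on either strand, 50.1% at least 2 and 11.4% at least 4. The core overlaps longer elements. The nuclear receptor element AGGTCA, which ends in GTCA, was found in the windows of Cst13 and Cst3 and in 14.0% of all windows. The cyclic AMP response element TGACGTCA was in none of the 5 windows shown and in 1.55% of all. The TATA element TATAAA was in that of Cst13 and in 12.4% of all. The SOX core AACAAT, an element of the Sertoli cell regulator SOX9, was in none of the 5 and in 9.42% of all. A match is a run of letters and no evidence of binding. In this window Cst9 had as many DRE cores as Cstdc2, Cst12 and Cst3 and fewer than Cst13, and 50.1% of all windows held at least 2. Bases after the start were not searched, and a role of DRE cores in the Cst9 reading was not tested.

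Cst9 read 10.09, 10.48 and 10.36 in wild-type replicates 1 to 3, and 7.95, 8.03 and 7.90 in transgenic replicates 1 to 3 (log2 intensity). The groups did not overlap, and 2.06 log2 units separated the lowest wild-type from the highest transgenic array. The transgenic arrays spanned 0.13 and the wild-type arrays 0.39. The difference was -2.35 (SE 0.11, 95% interval -2.61 to -2.09, limma), a 5.10-fold lower intensity with an interval of 4.27-fold to 6.10-fold. Among all probe sets of the same array, Cst9 lay between percentiles 94.8 and 95.9 in wild type and between 79.4 and 80.8 in transgenic testis. It therefore stayed in the brighter part of the array in both groups. In bulk tissue, fewer cells of a type and less RNA per cell cannot be told apart. Only 7 of the 45037 probe sets tested, Cst9's included, had a fall at least as large. The change rests on 1 probe set.

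Of the 8 member probe sets, 1 passed an adjusted p under 0.05 (limma, Benjamini-Hochberg over all probe sets), that of Cst9, where 0.444% of all probe sets passed in either direction and 0.273% passed as lower. An unadjusted p under 0.05 was reached by the same 1, where 6.69% of all reached it. Its groups alone did not overlap, where 11.3% of all probe sets had groups that did not overlap. The other 7 probe sets differed by between -0.07 and 0.16, with intervals that all hold 0 and reach at most 0.52 in size, a 1.44-fold ratio. The median over the 8 was 0.05, and it was 0.02 over all probe sets tested.

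**Figure D1:**
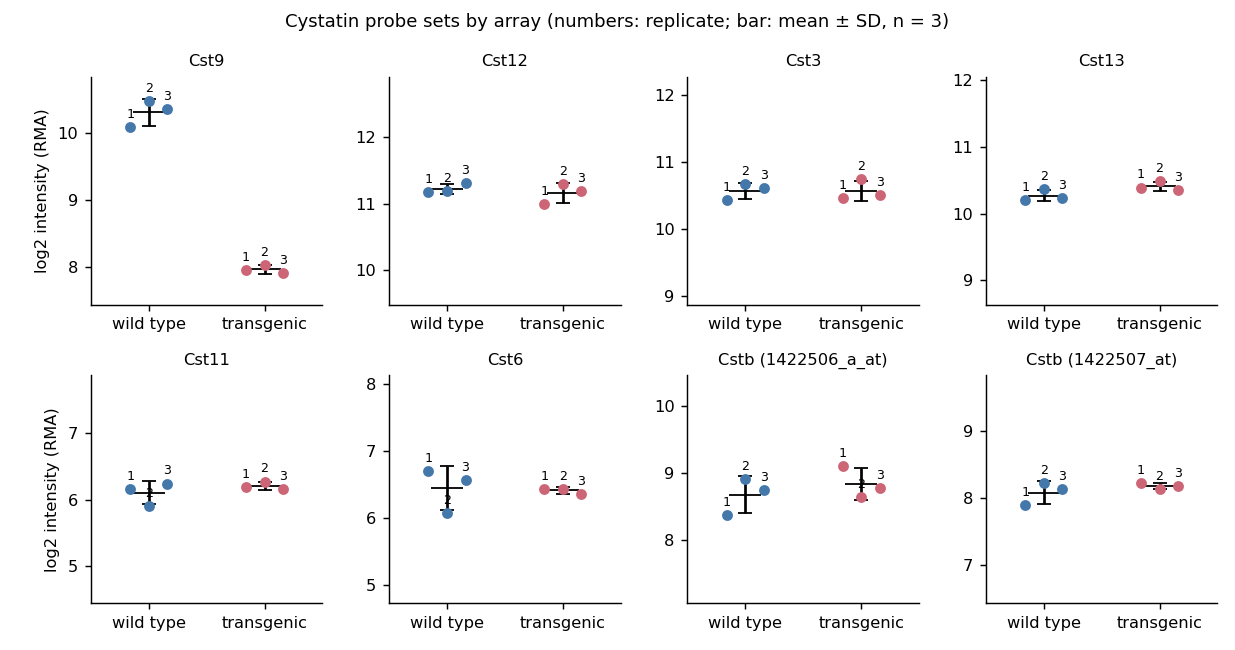
Log2 intensity (RMA) of the 8 cystatin probe sets in each of 6 arrays, 3 wild type (blue) and 3 DREAM transgenic (red). Points are arrays numbered by replicate, bars the mean ± SD, and every panel spans the same height. The transgenic Cst9 points lie between 7.90 and 8.03, below the wild-type points from 10.09 to 10.48, and the groups overlap in the other 7 panels.

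The other secreted members measured in the cluster read nearly level. Cst13, known from spermatogenic cells, read 10.20, 10.37 and 10.24 in wild type and 10.39, 10.48 and 10.35 in transgenic testis. Its groups overlapped only through wild-type replicate 2, which lay above transgenic replicate 3, and the difference was 0.14 (SE 0.09, 95% interval -0.07 to 0.34). Cst12 read 11.17, 11.19 and 11.31 in wild type and 10.99, 11.29 and 11.19 in transgenic testis. Transgenic replicate 1 was the lowest of the 6 arrays and wild-type replicate 3 the highest, and the difference was -0.07 (SE 0.10, 95% interval -0.30 to 0.17).

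Cst3, the widely expressed inhibitor of cathepsins, read 10.44, 10.67 and 10.61 in wild type and 10.46, 10.74 and 10.51 in transgenic testis. The groups covered almost the same range, with a difference of -0.003 (SE 0.11, 95% interval -0.25 to 0.24). Cst11, an epididymal cystatin, read 6.16, 5.91 and 6.24 in wild type and 6.19, 6.27 and 6.16 in transgenic testis. Wild-type replicate 2 was the lowest array, and the difference of 0.10 (SE 0.11, 95% interval -0.14 to 0.34) was 0.01 without it (SE 0.09). Cst11 lay between percentiles 48.4 and 54.3 of its arrays. No detection call is given, so its reading is not shown to lie above background.

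Cstb and Cst6 lie outside the cluster, on chromosomes 10 and 19. Cstb encodes stefin B, which guards the cytosol against leaked cathepsins. With its probe set of the _a_at class it read 8.37, 8.91 and 8.75 in wild type and 9.10, 8.64 and 8.77 in transgenic testis, a difference of 0.16 (SE 0.16, 95% interval -0.20 to 0.52). With the other it read 7.89, 8.22 and 8.13 against 8.22, 8.14 and 8.18, a difference of 0.10 (SE 0.11, 95% interval -0.14 to 0.34). Wild-type replicate 1 was the lowest of the 6 arrays and transgenic replicate 1 the highest or tied for highest with both probe sets.

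Cst6, the skin and hair follicle cystatin E/M that inhibits legumain as well as cathepsins, read 6.70, 6.08 and 6.57 in wild type and 6.44, 6.44 and 6.36 in transgenic testis. The wild-type arrays bracketed the transgenic ones, and the difference was -0.04 (SE 0.15, 95% interval -0.37 to 0.30). Without wild-type replicate 2 it was -0.22 (SE 0.09) and did not pass, the largest move of any member when an array was left out. Cst6 lay between percentiles 51.7 and 62.5, and it too is not shown to lie above background.

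The members also differed in how tightly replicates sat together. The within-group SD, pooled over both groups, was 0.08 for Cst13, 0.12 for Cst12, 0.13 for Cst11, 0.14 for Cst3 and 0.15 for Cst9, against a median of 0.13 over all probe sets. It was 0.23 for Cst6 and 0.26 for the _a_at probe set of Cstb, wider than in 88.7% and 92.4% of probe sets. Cst9's fall was many times its replicate spread, while changes of up to 1.30-fold for Cst6 and 1.44-fold for Cstb lie inside their intervals.

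Wild-type replicate 2 stood apart from the other arrays. It scored 42.2 on the leading principal component (39.0% of the variance), where the others scored between -23.3 and 5.27. It had the lowest array median, 5.99 against 6.04 to 6.08, and the highest upper quartile, 7.63 against 7.47 to 7.57. Its readings ran above the other wild-type arrays among bright probe sets and below them among dim ones. With probe sets divided into 5 equal classes of brightness, it was lower than their mean in 19.4% of the brightest class and in 67.1% of the class next to the dimmest. Most members did the same. Against the mean of the other wild-type arrays, replicate 2 was higher for Cst9 (0.26), Cst3 (0.14), Cst13 (0.15) and both Cstb probe sets (0.35 and 0.21), lower for Cst6 (-0.56) and Cst11 (-0.29), and near level for Cst12 (-0.05). Without it, Cst9 read -2.27 (SE 0.11), Cst13 0.19 (SE 0.09) and Cst12 -0.08 (SE 0.11). Kcnip3 itself read 0.06 (SE 0.10) and 0.14 (SE 0.10) higher in transgenic testis with its 2 probe sets, neither past the threshold and both overlapping, and they do not check the genotype labels, since it is unknown here if they detect RNA of the transgene.

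Sertoli cells are the known home of Cst9 in the testis, and their other markers read level. None of the 19 measured Sertoli genes passed (limma adjusted p), and none had an unadjusted p under 0.05, against 0.616% and 7.48% of all 18193 genes by their brightest probe set. Their differences ran from -0.23 to 0.21 with a median of 0.01, where the median of all genes was 0.02. The mean log2 level of the list lay between 8.20 and 8.40 in wild type and between 8.27 and 8.39 in transgenic arrays. Aard read -0.23 (SE 0.11, adjusted p = 0.77). Fshr, the receptor for follicle-stimulating hormone, read 0.20 (SE 0.10, adjusted p = 0.78). Cst9 minus the mean of this list was 1.89, 2.08 and 2.08 in wild-type replicates 1 to 3 and -0.44, -0.25 and -0.37 in transgenic replicates 1 to 3 (log2). Its change between the groups, the part that can be read across different probe sets, was -2.37. By construction that is the difference of Cst9 less that of the list mean, which was 0.02. The part of Sertoli cell number in the Cst9 reading was not tested.

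No spermatid or epididymal marker passed the test. Of 20 spermatid genes 0 passed, 1 had an unadjusted limma p under 0.05, and the list's mean was 12.61 to 12.63 in wild type and 12.60 to 12.67 in transgenic arrays. These bright readings, which include Prm1 and Tnp1 of sperm chromatin packing, match the labelled tissue. Akap3, of the sperm fibrous sheath, read 0.28 (SE 0.08, adjusted p = 0.388) and Spaca1, of the acrosome, -0.18 (SE 0.09, adjusted p = 0.796). Of 13 epididymal genes 0 passed and 1 had an unadjusted limma p under 0.05, Rnase10 at -0.60 (SE 0.11, adjusted p = 0.0647), with groups that did not overlap. It passed without wild-type replicate 2 (-0.68, adjusted p = 0.0191) and under 4 other alternatives, of 11 that held it. Rnase10 was dim, between percentiles 24.4 and 30.5 in wild type and 14.2 and 14.9 in transgenic arrays. A filter that dropped the lowest 40% of probe sets left it out. Cuzd1 followed at -0.47 (SE 0.22, adjusted p = 0.771), where wild-type replicate 1 read 7.69 and the other 5 arrays 6.54 to 6.78. The list's mean was 5.12 to 5.47 in wild type and 5.24 to 5.37 in transgenic arrays, and the groups overlapped. Within the list, Lcn5, Lcn8 and Gpx5 read between 4.67 and 5.59 in all arrays, while Lcn9, Adam7 and Cuzd1 read between 6.05 and 7.69. With no detection call, these levels do not show if epididymal RNA was present.

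The mean of the macrophage list, and that of the Leydig list through 2 of its 5 genes, was higher in every transgenic array than in any wild-type array. The macrophage list, for cells that express Cst3 and Cstb as well as many cathepsins, had a mean of 6.93 to 7.15 in wild type and 7.20 to 7.27 in transgenic arrays (exact permutation test, two-sided, p = 0.1, the smallest 3 against 3 can give, 0.233 adjusted over 7 lists). Of its 12 genes 11 read higher in transgenic testis, where 10317 of all 18193 genes did, and the median was 0.20. An unadjusted p under 0.05 was reached by 5, where 7.48% of all genes reached it, but 0 passed (limma). The groups did not overlap for 5 of the 12, against 12.5% of all genes. Lyz2, the macrophage lysozyme, read 0.36 (SE 0.10, adjusted p = 0.331) and C1qc, a subunit of complement C1q, 0.29 (SE 0.11, adjusted p = 0.659). Of the 5 measured Leydig genes Hsd3b1, an enzyme of steroid synthesis, rose by 1.48 (SE 0.13, limma adjusted p = 0.00109). Hsd17b3, named after its values were seen, read 0.91 (SE 0.20, adjusted p = 0.146), while Star, Cyp17a1 and Cyp11a1 read 0.01, 0.03 and -0.06, so the median was 0.03. The list's mean was 9.19 to 9.49 in wild type and 9.71 to 9.88 in transgenic arrays (exact permutation p = 0.1, 0.233 adjusted). RNA integrity was read from Gapdh control probes as the 3' signal less the 5' signal, which was 0.06 to 0.16 in wild type and 0.21 to 0.33 in transgenic arrays (exact permutation p = 0.1). The same measure from beta-actin overlapped, at 0.41 to 0.50 and 0.47 to 0.53 (exact permutation p = 0.6). The part of these shifts in the Cst9 reading was not tested.

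**Figure D2:**
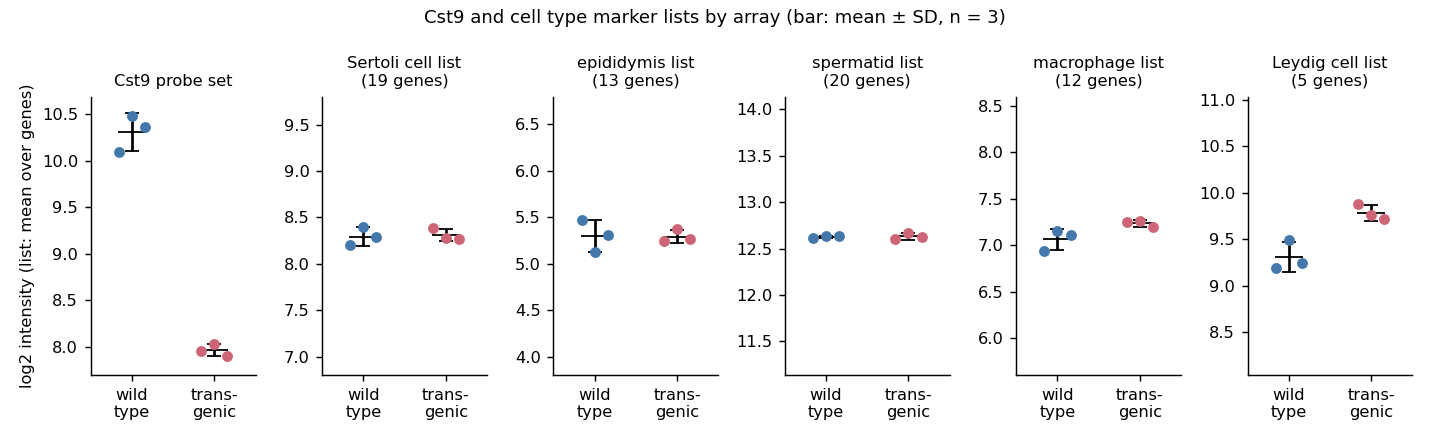
Log2 intensity of the Cst9 probe set and the mean log2 intensity of 5 cell type marker lists in each array, wild type in blue and transgenic in red, bars the mean ± SD of 3 arrays, all panels to the same height. The Sertoli list lies between 8.20 and 8.40 in all arrays while Cst9 falls from about 10.31 to 7.96. The macrophage list lies slightly higher in transgenic arrays, as does the Leydig list, where 3 of the 5 genes are level and Hsd3b1 and Hsd17b3 carry the mean.

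After Cst9, the lowest difference among the cystatin genes was that of the gene beside it, which did not pass the test. Cstdc2, a cystatin domain gene, is the next gene after Cst9 on chromosome 2, on the opposite strand, so that the genes run towards each other. It read 7.58, 7.88 and 7.51 in wild type and 6.71, 7.27 and 7.06 in transgenic testis. The groups did not overlap and every transgenic array lay below every wild-type one. The difference was -0.64 (SE 0.15, unadjusted p = 0.00234, adjusted p = 0.201, limma), so it did not pass over all probe sets. Leaving out each array in turn gave between -0.77 and -0.49, with no call.

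No other gene around Cst9 read lower to this degree. Over the 10 measured genes on each side of Cst9 in RefSeq order, 31 probe sets of 20 genes were read, members among them. Their median was 0.03. Of the 31, 0 passed (limma), where 0.444% of all probe sets passed, and 2 had an unadjusted p under 0.05, where 6.69% of all had. The groups did not overlap for 5 of the 31, where 11.3% of all probe sets had groups that did not overlap. Apart from Cstdc2, the smallest p belonged to 1 of 5 probe sets of Cd93, a surface protein of endothelial and myeloid cells, at 0.43 (SE 0.12, adjusted p = 0.355). The other probe sets of Cd93 read between -0.16 and 0.13. Cst13, on the other side of Cst9, read 0.14, and Cst3, just beyond Cstdc2, -0.003. Cst8 lies between Cst12 and Cst13 in this order and has no value here.

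**Figure D3:**
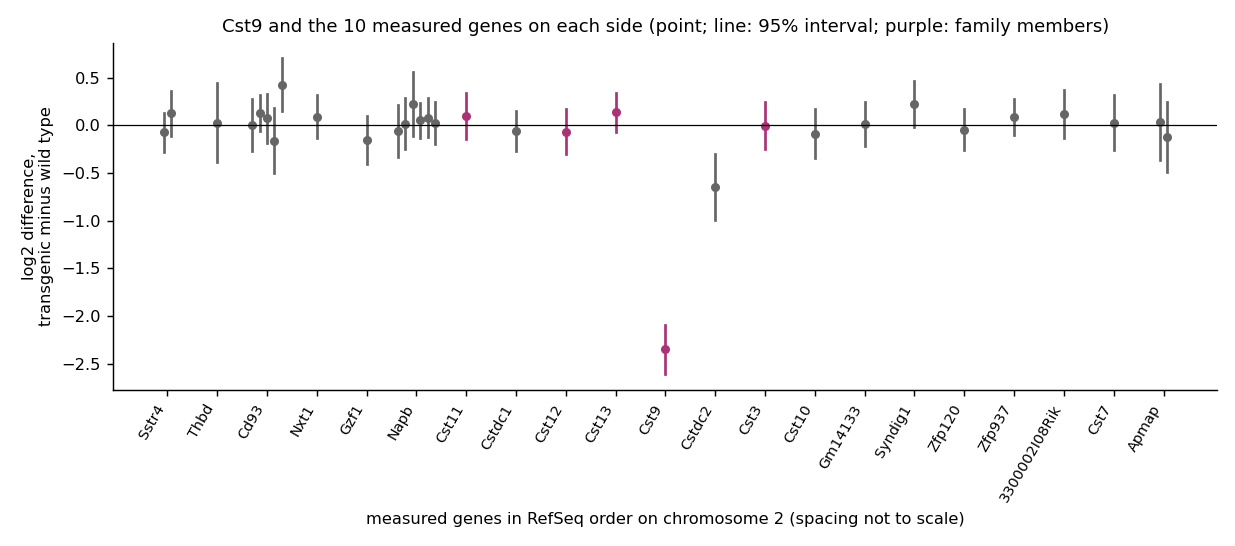
Log2 difference, transgenic minus wild type, with its 95% interval, for Cst9 and the probe sets of the 10 measured genes on each side, in RefSeq order on chromosome 2 with spacing not to scale and family members in purple. Cst9 at -2.35 and Cstdc2 at -0.64 lie below 0, while the other members lie between -0.07 and 0.14.

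Relatives outside the list of members, some of them on chromosome 2 near Cst9, gave no call. Of 13 other measured genes of the cystatin superfamily, which include stefins, Fetub, kininogen and the neutrophil proteins Ngp and Camp, 0 passed and 1, Cstdc2, had an unadjusted limma p under 0.05. There were 6 above 0 and 7 below, with a median of -0.03. After Cstdc2 the smallest p was that of Camp, the cathelicidin precursor, at 0.20 (SE 0.13, adjusted p = 0.883). Cstdc1, which lies between Cst11 and Cst12, read -0.05 (SE 0.09, adjusted p = 0.978).

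The genes listed for the protease targets of cystatins and for relatives of these proteases read slightly higher on the whole, and none of them passed. Of 13 measured genes for papain-family proteases, their relatives and legumain, 12 were above 0, with a median of 0.11 beside 0.02 over all genes, where 10317 of 18193 genes were above 0. Ctsk, the collagen-cleaving cathepsin K, had groups that did not overlap, at 5.76, 5.88 and 5.75 in wild type and 6.08, 6.20 and 6.09 in transgenic testis (difference 0.33, SE 0.09, adjusted p = 0.31). It was the 1 gene of the list with an unadjusted limma p under 0.05. Ctsf, cathepsin F, read 0.25 (SE 0.11, adjusted p = 0.752). Ctsl, cathepsin L, a known product of Sertoli cells, was the 1 gene below 0, at -0.06 (SE 0.09, adjusted p = 0.972), and was named after its values were seen. The mean of the list was 7.26 to 7.43 in wild type and 7.45 to 7.50 in transgenic arrays (exact permutation p = 0.1, 0.233 adjusted over 7 lists), a gap that went with the higher macrophage list. The part of macrophage RNA in it was not tested.

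**Figure D4:**
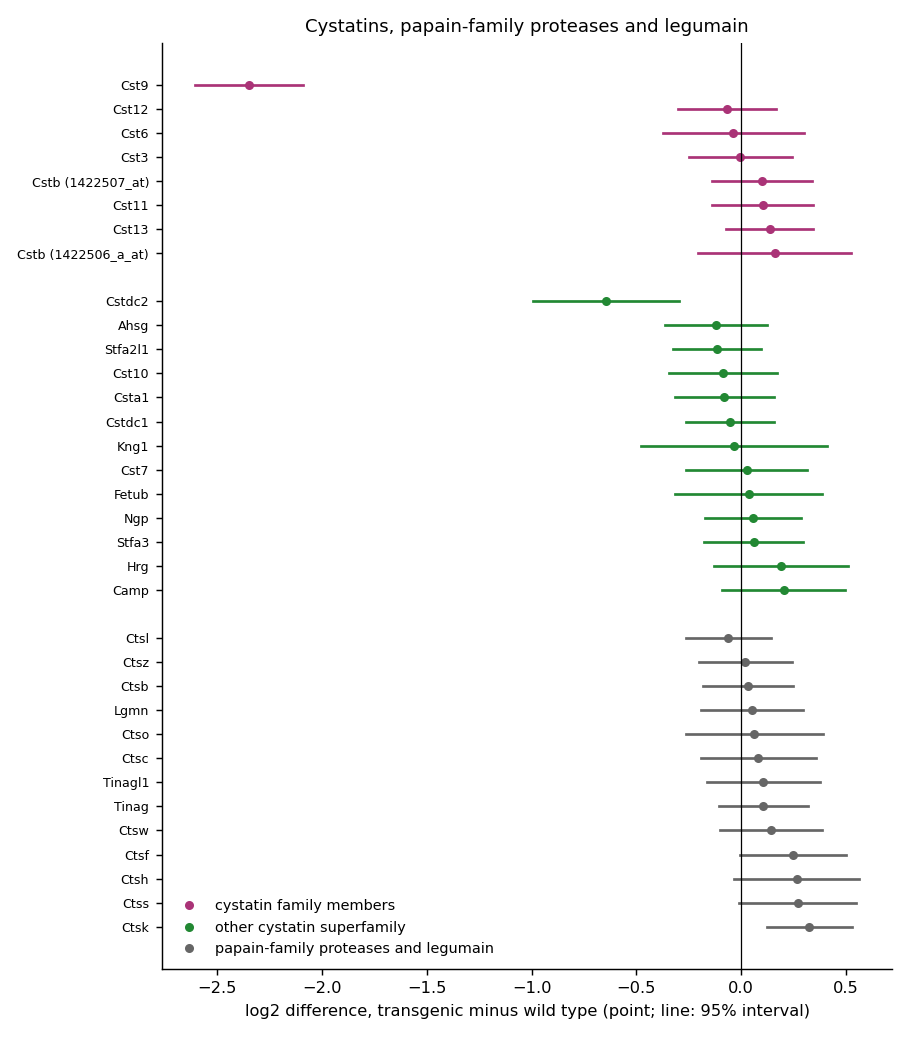
Log2 difference, transgenic minus wild type, with its 95% interval (limma), for the 8 cystatin probe sets, 13 other genes of the superfamily and 13 papain-family and legumain genes. Cst9 at -2.35 and Cstdc2 at -0.64 lie apart from the rest, and 12 of the 13 papain-family and legumain genes lie to the right of 0.

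Single probe sets of other genes had profiles much closer to Cst9 than those of the cystatins. Likeness was taken as the root mean square distance over the 6 arrays between profiles centred on their wild-type means, over 16260 genes. The 5 nearest were Uqcr10, of respiratory complex III (0.20), Galc, the lysosomal galactosylceramidase (0.20), the opposite-strand transcript Smc2os (0.22), Rd3, a regulator of retinal guanylate cyclase (0.26), and Apoc2, an activator of lipoprotein lipase (0.28). Their differences ran from -2.00 for Apoc2 to -2.60 for Smc2os, and Pearson's r with Cst9 over 6 arrays was between 0.98 and 0.99. Of these genes, Uqcr10, Galc and Rd3 had other probe sets, which moved less and did not pass (limma). Uqcr10 read 0.04 with its brightest and -0.68 with another (adjusted p = 0.983 and 0.198), Galc -0.31 and -0.10 (adjusted p = 0.354 and 0.94) and Rd3 -0.18 (adjusted p = 0.833). For Uqcr10, Galc and Rd3 the likeness was therefore seen with a single probe set. The other Rd3 probe set and the last of Galc had low wild-type means, 4.62 and 3.72. If a fall of like size could be seen from these levels was not tested. Apoc2 and Smc2os had no other probe set to compare. Cstdc2 lay at 1.22 from Cst9 and the nearest other member at 1.62. Among all probe sets compared, 0.523% had r of at least 0.95. The distance describes a step of like size and direction between the groups, while r does not measure the size of that step. Neither says anything of shared control.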

How the data were processed

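Total RNA from adult mouse testis was prepared with TRIzol and a column kit, labelled as biotinylated cRNA and hybridised to Affymetrix mouse whole-genome arrays, per the labels' protocols. The deposited values are log2 intensities, made by the authors with RMA and the affy package, per the submitters' processing notes, with no version, parameters or detection call given. RMA hides a shift of all transcripts at once.

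Of 45101 probe sets, 64 Affymetrix controls were left out and the other 45037 were tested unfiltered. Names come from the platform annotation (34945 probe sets with 1 gene, 932 with several, 9160 with none here), brought up to date through RefSeq GRCm38.p6, which matched 34741. Promoter windows come from RefSeq on that assembly, and 5 of the 8 members had one, namely Cst3, Cst8, Cst9, Cst12 and Cst13. That of Cst8, which has no intensity value here, is not shown. It held 3 DRE cores and 1 match to AGGTCA.

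The main test was limma (version 3.58.1, R version 4.3.3; lmFit and eBayes, two-sided) of transgenic less wild type, adjusted by Benjamini-Hochberg over all tested probe sets, at a threshold of 0.05. A gene of a list is its brightest single-gene probe set, and lists are described by counts and medians. From each list the text names up to 4 genes that passed, or the 2 with the smallest p where no gene did, and likewise for the neighbours of Cst9. The 5 genes most like Cst9 leave out clone-style symbols. Ctsl, Cstdc1, Hsd17b3 and single markers given as levels were named after their values were seen. The members and lists were chosen with earlier results of these data known. The fit was tested on simulated data. With 3 arrays per group, their number limits the precision, and no pair of arrays held the same values throughout. The alternatives, whose effect the closing section gives, were a filter, other normalizations, other variance settings, array weights, a replicate block, leaving out each array and averaging a gene's probe sets.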

Additional observations from a re-analysis of the deposited data

How the results depend on the processing

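Cst9 kept its direction and its call under all 12 alternatives, between -2.46 and -2.27 (log2). The other 7 member probe sets passed under none, and the differences of Cst3, Cst6, Cst11 and Cst12 turned sign under 4, 2, 1 and 1 of them, as values near 0 can. Over all probe sets 200 passed, 306 with a trend and robust prior, and 117 with the replicate block. Same-numbered arrays deviated from their group means with correlations of -0.32, -0.07 and -0.01. No shared deviation by number was seen, though 3 arrays per group cannot settle if the numbers pair the samples. The block changed no call of a member. Array weights gave 4160 calls, but their estimation stopped before its tolerance was reached and gave wild-type replicate 3 a weight of 19.1 beside 0.237 to 0.812 for the others. With these weights 3 genes of the protease list, 1 other cystatin gene (Cstdc2, adjusted p = 0.0158) and 6 marker genes passed. So did 4 of the 31 neighbour probe sets of Cst9, among them the Cd93 probe set with the smallest p in the main test (adjusted p = 0.00948). The settings for the neighbours other than leaving out an array were chosen after seeing the data. The count over all probe sets was 156, 429 and 70 without wild-type replicates 1, 2 and 3, and 71, 75 and 73 without transgenic replicates 1, 2 and 3. Marker genes past the threshold numbered 1, and 2 after quantile normalization again, median centring or averaged probe sets, 3 with a trend and robust prior and 1 to 3 without 1 array, the 3 being without wild-type replicate 2. Rnase10 passed with array weights (adjusted p = 0.000247), median centring (0.0473), quantile normalization again (0.0334) and a trend and robust prior (0.0393), and Akap3 with array weights (0.0124) and a trend and robust prior (0.00618). The counts for other cystatins, proteases and neighbours of Cst9 stayed at 0 when any array was left out. Apart from the weights, the causes of these moves were not tested. Values of Cst6 and Cst11, near the middle of the arrays, and of Rnase10, well below it, have no detection call. A change of them below background could not be seen.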
